A study of Mus musculus with 2 samples.

Results

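Cycling CD8 T cells were the CD8 T cells of mouse B16Ova tumors that held at least 1 UMI (a unique molecular identifier, standing for 1 captured transcript) of Mki67 or Top2a, the genes of the Ki-67 antigen and of topoisomerase II alpha. They numbered 111 of 365 CD8 T cells, among 2074 cells kept from 2 libraries. A CD8 T cell was a cell with at least 1 UMI of Cd3d, Cd3e or Cd3g, at least 1 of Cd8a or Cd8b1, none of Cd4, and under 0.5% of its UMIs from Cd74, H2-Aa, H2-Ab1 and H2-Eb1. The remaining 254 CD8 T cells, with no UMI of Mki67 or Top2a, are called non-cycling here. The cells were chosen by these measured values, so the levels of these gate genes are no result, and every contrast of cycling with non-cycling cells is a description. B16Ova is a mouse melanoma line that carries ovalbumin as a model antigen, grown under the skin of the flank of female mice and harvested on day 13. Mice of the WT group were E8i-cre-, Tcf7 FL/FL, so they carried the floxed allele without the recombinase. Mice of the KO group were E8i-cre+, Tcf7 FL/FL. E8i is a Cd8a enhancer active in mature CD8 T cells, so the deletion concerned CD8 T cells after their development and not the rest of the tumor. From each of 3 tumors per group, 2000 cells of each of 4 sorted categories (CD8 T cells, CD4 T cells, dendritic cells and other immune cells) were collected, mixed equally and loaded as 7000 cells in 1 channel.

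A cell that enters division first makes the replication machinery and the deoxynucleotides for DNA synthesis in S phase, under E2F transcription factors, along with histones that package the new DNA. It then makes cyclin B, the kinase CDK1, spindle proteins and the anaphase machinery in G2 and mitosis, many of them under the MuvB complex with B-MYB and FOXM1. TCF1, the product of Tcf7, is a transcription factor of naive, memory and stem-like CD8 T cells. In tumors, TCF1+ cells are known as the source of more differentiated cells, among which much of the division takes place.

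Of 176 CD8 T cells in the WT library 41 were cycling, as were 70 of 189 in the KO library. Cycling cells held a median of 10927 UMIs in the WT library (range 1032 to 32417) and of 18580.5 in the KO library (2242 to 47206). Non-cycling cells held medians of 4335 and 4671. Summed, the cycling cells gave 547986 WT and 1308127 KO UMIs, and the non-cycling cells 683601 and 747411. Because each group is 1 library of pooled tumors, no test between groups was possible and the spread between animals is unknown. A level below is a gene's UMIs per 1000000 of the summed UMIs of a cell set (CPM), and a ratio is a quotient of such levels. Each has an exact 95% interval that covers counting error only; UMIs of 1 cell are not independent, so it is narrower than the spread between cells. A gene was measured where it reached 50 CPM in 1 of the cell sets compared. It was counted as higher or lower where the ratio passed 1.5-fold and its interval excluded 1. More UMIs from a set of cells can come from more cells with the transcript or from more transcript per cell, and CPM does not tell these apart.

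The label was first checked against cycle genes that the gate did not use. A cell's cycle load was the sum of its UMIs of 82 replication genes and 97 genes of G2 and mitosis, as listed, per 10000 UMIs of the cell. Cells with 5 or more gate UMIs had a median load of 209 in the WT library (13 cells) and of 192 in the KO library (33 cells). Those with 2 to 4 gate UMIs had medians of 102 (11 cells) and 91.5 (13 cells). With 1 gate UMI the medians were 27.3 (17 cells) and 33.8 (24 cells), beside 27.3 and 26.3 in non-cycling cells. Thus the cells just inside the threshold carried cycle loads near those just outside it. The 95th percentile of the non-cycling cells was 49.4 in the WT and 53.4 in the KO library. It was exceeded by 21 of 41 WT members (51.2%) and 48 of 70 KO members (68.6%). Among members with at least 2 gate UMIs it was exceeded by 19 of 24 (79.2%) and 42 of 46 (91.3%). Of the members with 1 gate UMI, 2 of 17 and 6 of 24 were above it. The name cycling therefore describes the members with several gate UMIs, while the rule also takes in cells without a raised load. Members above the percentile are called high-load members below, a subset defined after the data were seen.

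**Figure D1:**
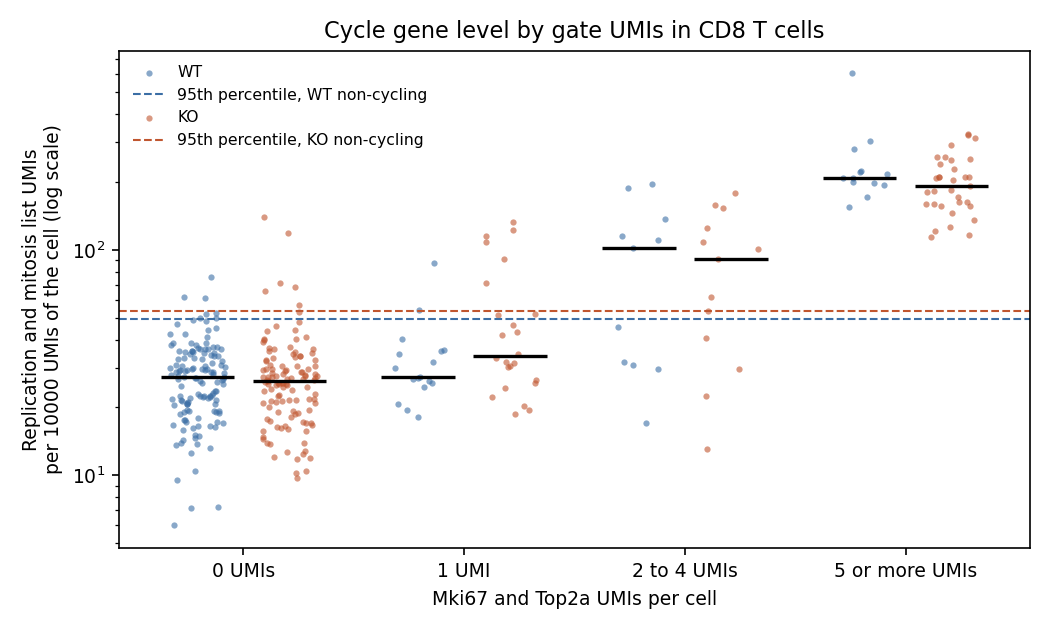
Each point is 1 CD8 T cell, with its cycle load (UMIs of the replication and mitosis lists per 10000 UMIs, log axis) by its number of Mki67 and Top2a UMIs, for the WT and KO libraries. Black bars are medians and dashed lines the 95th percentile of non-cycling cells (49.4 WT, 53.4 KO); cells with 1 gate UMI overlap the non-cycling cells, and every cell with 5 or more lies above the line.

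The members carried T cell genes outside the gate. Lck, the proximal kinase of the T cell receptor, had a UMI in 41 of 41 WT and 69 of 70 KO members, Thy1 in 41 and 70, and Cd2 in 40 and 68. Neutrophil markers had no UMI in any member. The B cell list had 3 UMIs in WT and 2 in KO members, with Cd79a at 0, and the plasmacytoid dendritic cell list 4 and 17, with Siglech at 0. Melanoma markers had 2 and 4 UMIs. The NK cell list summed to 52.9 CPM in WT and 99.4 in KO members, against 215 and 252 in non-cycling cells, and 4 of its 7 genes were at 0 in the members, Ncr1 and Klrb1c among them. The list of antigen-presenting cells summed to 224 and 252 CPM, against 279 and 523, with 7 of 13 genes at 0 in WT and 6 in KO members, Xcr1 and Clec9a among them. Fscn1, a gene of mature dendritic cells, had 13 UMIs in 3 KO members, and Lyz2, a gene of macrophages, 8 UMIs in 6 KO members. Foxp3 had UMIs in 1 WT and 4 KO members. The macrophage and monocyte list summed to 1.82 CPM in WT and 32.9 in KO members, against 101 and 412 in non-cycling cells. In the KO non-cycling cells, 1 cell held 262 of the 308 UMIs of that list. The part of such UMIs in the results was not tested. The list of CD4 lineage and regulatory T cell markers summed to 557 and 741 CPM in members and to 374 and 496 in non-cycling cells. No barcode was shared between libraries among the members, and 1 was shared among all barcodes.

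The share of CD8 T cells that met the gate was 23.3% (17.3 to 30.2) in the WT library and 37.0% (30.1 to 44.3) in the KO library. The difference was 13.7 percentage points, with an interval from 4.31 to 22.8 by Newcombe's method, which treats cells as independent and covers counting error only. CD8 T cells were deeper in the KO library, with a median of 6580 UMIs against 4787.5, and the gate is met more easily in deep cells. After each cell was thinned to 2000 UMIs, 20 of 164 WT cells (12.2%) and 41 of 184 KO cells (22.3%) met it, leaving out 12 and 5 shallower cells. That difference was 10.1 points (2.09 to 17.8) in the draw made, and 5.96 points in the mean over draws, computed from each cell's counts. At 1000 UMIs the difference was 2.97 points (-3.31 to 9.16; mean over draws 3.40), and at 4000 UMIs 13.7 points (2.62 to 24.0; mean over draws 11.7). With 1 library of pooled tumors per group, a difference between the genotypes cannot be told apart from one between animals or libraries. Mature dendritic cells were taken as cells with UMIs of Fscn1 and Ccl22 and none of Cd3d, Cd3e or Cd3g. They are not expected to divide. Choosing cells without Cd3 UMIs may leave out those with stray T cell transcripts, so the background they give may be too low. In the WT library 2 of 53 met the gate (3.77%) and in the KO library 1 of 38 (2.63%), at median depths of 8391 and 8874 UMIs. Thinned to 2000 UMIs the shares were 1 of 50 (2%) and 1 of 38 (2.63%), below the share in CD8 T cells.

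Summed levels of replication, mitosis and histone genes were higher in cycling than in non-cycling cells of both libraries. Of 2590 genes measured in both libraries, 418 were counted as higher in both (16.1%) and 170 as lower in both (6.56%). Summed, the replication list stood at 8161 CPM in WT and 7779 in KO members, against 1495 and 2066 in non-cycling cells. The mitosis list stood at 6086 and 6978 CPM, against 1195 and 1592. In the KO non-cycling cells 1 cell, with a cycle load of 140, gave 306 of the 1544 replication and 314 of the 1190 mitosis UMIs. The KO non-cycling levels of both lists therefore rest in part on that cell. Clustered histones stood at 1869 and 1880 CPM, against 200 and 227. Most genes of these lists reached 50 CPM in the cycling cells alone, and for such genes the filter itself nearly fixes the direction. Of the 82 replication genes 46 were measured in both libraries, 36 of them through the cycling cells alone, and of the 97 mitosis genes 32, with 22 through the cycling cells alone. Of the 10 replication and 10 mitosis genes that reached 50 CPM in the non-cycling cells of a library, 9 and 9 were higher in both libraries. All 6 of 66 histone genes that were measured passed through the cycling cells alone. These lists were not used to choose the cells, yet they mark the same process as the gate genes, so the counts describe how closely they go with Mki67 and Top2a.

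Within these lists, Rrm2, the small subunit of ribonucleotide reductase, was at 294 CPM in WT and 226 in KO members and at 2.93 and 9.37 in non-cycling cells. The ratio was 100 in the WT library (27.4 to 836, against 2 UMIs) and 24.2 in the KO library (11.6 to 60.6). Mcm5, a subunit of the replicative helicase, was at 170 and 146 CPM against 8.78 and 26.8, and Pcna, the sliding clamp, at 161 and 196 against 35.1 and 60.2. The sliding clamp had the smaller ratio, 4.6 and 3.3, while that of Mcm5 was 19.3 and 5.5. 2810417H13Rik, the PCNA-associated factor, was at 675 and 641 CPM against 2.93 and 53.5, and 27 of its 40 UMIs in KO non-cycling cells came from 1 cell. Among histones, Hist1h2ap was at 515 and 430 CPM against 8.78 and 12, Hist1h2ae at 235 and 208 against 5.85 and 5.35, and Hist1h1b at 208 and 193 against 1.46 and 4.01. Clustered histone genes are near-identical in sequence, so the split of reads among them is uncertain.

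Cdk1, the mitotic kinase, was at 85.8 CPM in WT and 120 in KO members. It had no UMI in WT non-cycling cells and 1 in KO non-cycling cells, so the WT members were at least 19.5-fold higher (floor of 3 UMIs over the cell set), and the KO ratio was 89.7 with an interval from 15.9 to 3565. Ccna2, cyclin A, was at 141 and 158 CPM against 0 and 6.69, at least 32-fold higher in WT members and 23.7-fold in KO members. Fbxo5, an inhibitor of the anaphase-promoting complex, was at 98.5 and 67.3 CPM against 1.46 and 0. Nusap1, which bundles spindle microtubules, was 52.4-fold higher in WT (8.9 to 2118) and 62.3-fold higher in KO members (10.9 to 2482), each against 1 UMI in non-cycling cells. Birc5 (survivin), of the chromosomal passenger complex, was at 182 and 237 CPM against 1.46 and 22.7, and 13 of the 17 UMIs in KO non-cycling cells came from 1 cell. The counts in non-cycling cells were low in both libraries and rested on few cells. In the KO non-cycling cells the UMIs of Cdk1, Ccna2 and Birc5 came from 1, 2 and 4 cells.

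The promoters of 3 mitosis genes and 2 replication genes, among those with the highest cycling ratios that had a reference entry, are shown, since these genes are high together and the elements known to govern cycle genes can be looked for in them. Each is the 200 bases before the first listed start of the gene, from RefSeq on GRCm38.p6, 5′ to 3′ on the gene's strand. Capitals mark matches on either strand to the cell cycle homology region or CHR (the letters TTTGAA or the letters TTCGAA), to E2F sites (TTTCCCGC, TTTCGCGC, TTTGCCGC, TTTGGCGC) or to the CCAAT box, which reads ATTGG where it lies on the other strand. The Cdk1 window is chr10:69352913-69353112 on the minus strand, Nusap1 chr2:119618098-119618297 on the plus strand, and Cenpf, which encodes a kinetochore protein, chr1:189688087-189688286 on the minus strand. Rrm2 is chr12:24708054-24708253 on the plus strand and Asf1b, a histone chaperone, chr8:83955494-83955693 on the plus strand.
Cdk1: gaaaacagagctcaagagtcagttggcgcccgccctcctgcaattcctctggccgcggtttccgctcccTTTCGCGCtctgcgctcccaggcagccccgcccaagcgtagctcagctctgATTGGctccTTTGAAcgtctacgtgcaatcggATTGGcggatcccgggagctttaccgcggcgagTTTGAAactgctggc
Nusap1: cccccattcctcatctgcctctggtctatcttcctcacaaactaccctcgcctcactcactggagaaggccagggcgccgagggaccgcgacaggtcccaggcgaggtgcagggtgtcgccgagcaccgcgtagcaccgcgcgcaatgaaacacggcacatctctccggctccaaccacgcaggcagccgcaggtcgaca
Cenpf: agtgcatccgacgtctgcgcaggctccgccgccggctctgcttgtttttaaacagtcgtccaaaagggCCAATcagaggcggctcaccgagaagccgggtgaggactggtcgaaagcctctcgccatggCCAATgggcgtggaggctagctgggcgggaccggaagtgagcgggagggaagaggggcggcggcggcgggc
Rrm2: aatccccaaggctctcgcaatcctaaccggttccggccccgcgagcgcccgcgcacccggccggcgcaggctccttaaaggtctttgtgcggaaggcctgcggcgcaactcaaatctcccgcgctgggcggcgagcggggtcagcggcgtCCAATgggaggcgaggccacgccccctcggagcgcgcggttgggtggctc
Asf1b: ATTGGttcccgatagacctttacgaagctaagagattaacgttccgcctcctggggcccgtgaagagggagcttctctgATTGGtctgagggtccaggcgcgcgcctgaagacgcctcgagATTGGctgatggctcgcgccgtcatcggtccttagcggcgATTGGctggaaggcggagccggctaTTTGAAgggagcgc

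Cdk1 held 2 CHR matches, beginning 71 and 15 bases before the start, 1 E2F match 131 bases before it, and 2 CCAAT boxes. Asf1b held 1 CHR match 14 bases before the start and 4 CCAAT boxes. Cenpf had 2 CCAAT boxes, Rrm2 had 1, and Nusap1 had none of these letters. Across the mitosis list, 77 of 97 genes had an entry, of which 39.0% held a CHR match, 7.79% an E2F match and 70.1% a CCAAT box. For the replication list, with 63 of 82 entries, the shares were 14.3%, 22.2% and 55.6%. Among all 27025 promoters they were 13.6%, 1.63% and 30.0%, and among 2012 of the 2590 measured genes 10.4%, 3.83% and 35.2%. CHR letters were thus more frequent in the mitosis list and E2F letters in the replication list. A match is a description of letters and not a bound site. The clustered histones had no entry.

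Replication UMIs outnumbered mitosis UMIs in most cycling cells of both libraries. Of the summed UMIs of both lists, the mitosis list made up 42.7% (41.6 to 43.8) in WT members, from 4472 replication and 3335 mitosis UMIs. In KO members it made up 47.3% (46.6 to 48.0), from 10176 and 9128. Non-cycling cells had 44.4% and 43.5%. Replication UMIs were more numerous in 29 of 41 WT and 46 of 70 KO members, and mitosis UMIs in 11 and 22. In the WT members 1 cell gave 580 of the 3335 mitosis UMIs, so their mitosis share rests in part on that cell. Among members with 5 or more gate UMIs the mitosis share was 45.9% and 49%. The spread between animals could not be measured.

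**Figure D2:**
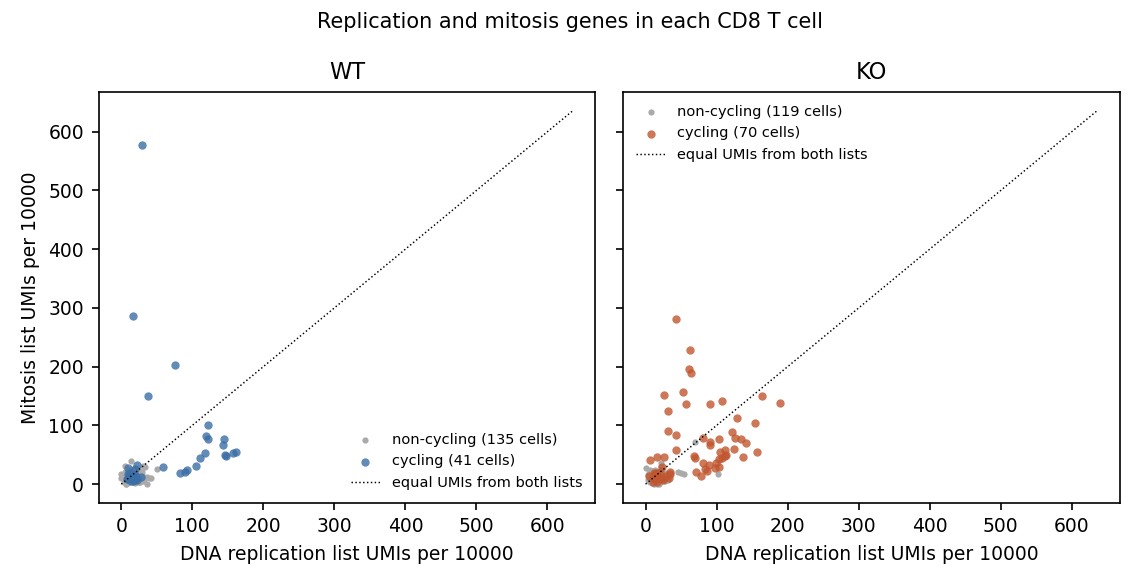
Each point is 1 CD8 T cell, with UMIs of the replication list per 10000 UMIs against UMIs of the mitosis list per 10000. Separate panels show the WT library (41 cycling cells in color, 135 non-cycling in grey) and the KO library (70 and 119). The dotted line marks equal values. Cycling cells spread from low values of both lists to high values of either, with 29 WT and 46 KO members on the replication side.

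Among growth lists, the shares of genes higher in cycling cells ranged from most of the list to near the background of all genes. Chromatin and tubulin genes were counted as higher in both libraries for 23 of 29 measured, nucleotide and one-carbon synthesis for 13 of 21, and ribosome biogenesis and translation factors for 15 of 27. Glycolysis had 5 of 13 higher, oxidative phosphorylation 16 of 75, proteasome 6 of 34 and chaperones 7 of 27, against 16.1% of all genes. The shares of oxidative phosphorylation and the proteasome lie near that background and are no result about these lists. In the non-cycling cells of a library 26 of the 29 chromatin and tubulin genes reached 50 CPM, of which 20 were higher in both. Of the 21 nucleotide genes 15 did so, with 7 higher in both, and of the 27 ribosome biogenesis genes 26, with 14 higher. The other genes passed through the cycling cells alone, where the filter itself nearly fixes the direction. Stmn1, a microtubule destabiliser, was 24.3-fold higher in WT and 11.6-fold higher in KO members. Hmgb2, a chromatin protein, was 5.16- and 4.77-fold higher, and Tuba1b, an alpha-tubulin, 5.73- and 4.78-fold. In nucleotide metabolism Phgdh, the first enzyme of serine synthesis, was 3.32- and 2.44-fold higher, Dtymk, which phosphorylates dTMP, 3.69- and 3.38-fold, and Dctpp1, a dCTP pyrophosphatase, 3.23- and 3.87-fold. For ribosome biogenesis, Nop58, a nucleolar protein of box C/D particles, was 2.29- and 2.36-fold higher. Among glycolytic genes, Pgk1, phosphoglycerate kinase, had a ratio of 2.06 and Tpi1, triose phosphate isomerase, of 1.97 in the KO library, above the list's median. Of 80 cytosolic ribosomal protein genes 2 were higher and 2 lower, Rps27 at 0.45 and 0.47 being among the lower.

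Within each library, 726 of 2889 genes were counted as higher in cycling WT cells (25.1%) and 309 as lower (10.7%). In the KO library they were 665 of 2864 (23.2%) and 316 (11%). The median log2 ratio over all genes was 0.20 and 0.21, so members' ratios are best read against that shift. With TMM scaling it was 0.12 in both libraries, and the calls became 613 higher and 374 lower in WT, and 527 and 385 in KO. The share of calls that were higher thus moved from 67.8% to 57.8% in the KO library and from 70.1% to 62.1% in the WT library. Median log2 ratios were 2.32 and 2 for replication, 3.83 and 2.77 for mitosis and 3.89 and 3.67 for histones, in the WT and KO libraries. Those of the growth lists were lower, 1.12 and 0.87 for nucleotide synthesis, 0.75 and 0.70 for ribosome biogenesis, 0.65 and 0.64 for glycolysis, 0.46 and 0.41 for oxidative phosphorylation.

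In the KO library the comparison cells mattered more for the growth lists than for the cycle lists. Non-cycling cells were shallower and often naive-like: 74 of 135 WT and 69 of 119 KO non-cycling cells had a UMI of Ccr7 or Lef1, a lymph node homing receptor and a transcription factor of naive cells, against 14 of 41 and 24 of 70 members. The contrast was therefore repeated against deeper non-cycling cells (96 WT and 47 KO cells, whose medians of 5149 and 8382 UMIs remained below those of the members, 10927 and 18580.5) and against those without such a UMI (61 and 50 cells, a set chosen after the data were seen). Replication genes were higher for 51 of 53 measured in WT and 48 of 50 in KO against all non-cycling cells, and for 51 and 46 genes against the deeper cells. Against the deeper cells, glycolysis in the KO library had 0 of 14 genes higher in place of 7, oxidative phosphorylation 6 of 75 in place of 20, and ribosome biogenesis 10 of 31 in place of 18. In the WT library the counts against the deeper cells hardly moved. Glycolysis had 7 of 13 in place of 8, ribosome biogenesis 15 of 27 each time, and oxidative phosphorylation 27 of 75 in place of 28. Of 22 nucleotide genes, 11 in KO and 15 in WT were higher against the deeper cells, in place of 16 in each. Without Ccr7 or Lef1 cells, replication genes were higher for 49 of 53 in WT and 46 of 50 in KO. Glycolysis then had 6 of 13 and 1 of 14, oxidative phosphorylation 15 and 4 of 75, and ribosome biogenesis 15 of 28 and 9 of 31. The narrower sets hold fewer UMIs, which widens the intervals. Of all genes, 25.1% in WT and 23.2% in KO were higher against all non-cycling cells. No such share is given here for the narrower sets.

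**Figure D3:**
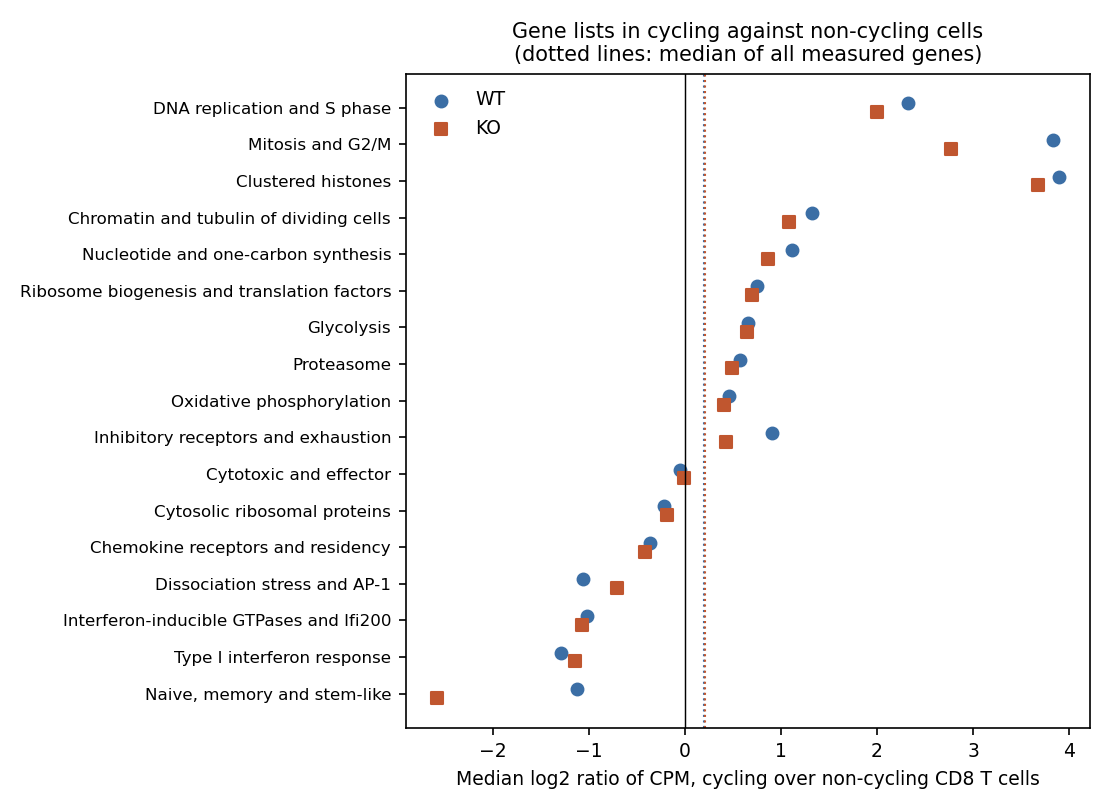
Median log2 ratio of cycling to non-cycling CD8 T cells for 17 gene lists, with circles for the WT and squares for the KO library; the dotted line is the median of all genes (0.20 WT, 0.21 KO). Histone, mitosis and replication lists lie farthest to the right, growth lists follow, and naive and type I interferon lists lie to the left of 0.

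Of 20 measured genes of naive, memory and stem-like cells, 13 were counted as lower in both libraries and none higher, against 6.56% of all genes. Of these 20, 8 reached 50 CPM in non-cycling cells alone, and of the other 12, 5 were lower. Il7r, the receptor for interleukin 7, was at 80.3 CPM in WT and 34.4 in KO members, against 440 and 340 in non-cycling cells. Satb1, a chromatin organiser, was at 10.9 and 16.8 against 129 and 142. Tcf7 itself was at 0.25 times the non-cycling level in WT members (0.17 to 0.36) and 0.14 times in KO members (0.09 to 0.23). These differences include the naive-like cells among the non-cycling ones. Against non-cycling cells without Ccr7 or Lef1, 10 of 21 of these genes were lower in WT and 8 of 13 in KO members, and 2 were higher in each, which include genes that define that set.

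Among 15 measured genes of cycle entry and its inhibitors, 2 were higher in both libraries, against 16.1% of all genes, and 5 were lower, against 6.56%. The share of higher genes lies near that of all genes and is no result about this list. Of the 15 genes, 2 reached 50 CPM in non-cycling cells alone, and of the other 13, 3 were lower. With the gate applied after thinning, the WT median log2 ratio of the list turned from -0.39 to 0.11. The higher ones were Cdk4 and Cdk6, the kinases that start the cycle with cyclin D. The 5 lower ones were Cdkn1b and Cdkn2d, which inhibit those kinases, the antiproliferative factors Btg1 and Btg2, and Klf2, a quiescence factor. Btg1 was at 305 CPM in WT and 231 in KO members, against 944 and 689 in non-cycling cells. Tsc22d3, a glucocorticoid-induced gene, was at 119 and 81.8 CPM against 443 and 352, and Bcl2, which protects from apoptosis, at 49.3 and 25.2 against 149 and 147. Of 15 measured stress and AP-1 genes 7 were lower, against 6.56% of all genes, with Fos at 29.2 and 28.3 CPM against 157 and 99.0. Here too 2 genes reached 50 CPM in non-cycling cells alone, and of the other 13, 5 were lower. AP-1 genes also respond to tissue dissociation, whose part in the result was not tested. Ssh2, a cofilin phosphatase, and Fam101b, a regulator of filamins, completed the lowest genes, Ssh2 at 18.2 and 17.6 CPM against 120 and 89.6, and Fam101b at 7.30 and 4.59 against 73.1 and 57.5.

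Interferon-stimulated genes were lower in the cycling cells of both libraries. Of 16 measured type I interferon response genes 10 were counted as lower in both, and of 11 interferon-inducible GTPase and Ifi200 genes 7, with none higher, against 6.56% of all genes. Of the first list 6 reached 50 CPM in non-cycling cells alone, and of the other 10, 5 were lower. Of the second list 3 did so, and of the other 8, 4 were lower. Ifit1, which binds foreign RNA caps, was at 16.4 CPM in WT members and 26.8 in KO members, against 177 and 150. Ifit3, its partner, was at 27.4 and 25.2 against 197 and 162. Isg15, a ubiquitin-like modifier, was at 91.2 and 123 against 276 and 313. The lower level held against the other comparison cells: of the type I list, 14 of 19 in WT and 11 of 14 in KO members were lower against the deeper non-cycling cells. Against cells without Ccr7 or Lef1 the counts were 21 of 23 and 15 of 18. Of all genes, 10.7% in WT and 11% in KO were lower against all non-cycling cells. MHC class I genes, which also respond to interferon, had 2 of 15 lower in both libraries, with B2m at 0.82 and 0.83 times the non-cycling level.

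Inhibitory receptors and other exhaustion-associated genes were higher in cycling cells, but the result depended on the comparison cells and on the gate. Of 13 measured genes 6 were higher in both libraries (Pdcd1, Havcr2, Tox, Rgs16, Ikzf2, Bhlhe40) and 1, Vsir, was lower, against 16.1% and 6.56% of all genes. Pdcd1, the receptor PD-1, was at 542 CPM in WT and 555 in KO members against 290 and 332 in non-cycling cells. Tox, a transcription factor of exhausted cells, was at 210 and 220 against 67.3 and 138, and Havcr2, the receptor TIM-3, at 94.9 and 122 against 39.5 and 73.6. In the WT library 11 of 13 list members were higher, 8 of 13 against the deeper cells, and 3 of 14 with 2 lower against cells without Ccr7 or Lef1. In the KO library 6 of 14 were higher, and 1 of 14 and 1 of 15 against the same comparison cells. Of all genes, 25.1% in WT and 23.2% in KO were higher against all non-cycling cells. The KO median log2 ratio was 0.43 against all non-cycling cells, -0.03 against the deeper cells and 0.02 against cells without those markers. With the gate applied after thinning the KO median was -0.09, and 4 of the 6 genes turned direction in a library. These were Havcr2 at -0.35 and Rgs16 at -0.09 in KO, Ikzf2 at -0.05 in WT, and Bhlhe40 at -0.00 in WT and -0.23 in KO, as log2 ratios.

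Of 22 measured cytotoxic and effector genes, none was higher in the cycling cells of both libraries and 2 were lower, against 16.1% and 6.56% of all genes. The median log2 ratio was -0.05 in WT and -0.01 in KO. Against the deeper non-cycling cells 6 of 22 were higher and 4 lower in WT (median 0.19), and 2 and 7 of 26 in KO (-0.27). The medians of all genes were 0.21 and 0.10 there, so the WT values are no result about this list. In single libraries, 25.1% of all genes were higher and 10.7% lower in WT against all non-cycling cells, and 23.2% and 11% in KO. Against cells without Ccr7 or Lef1, 1 of 22 was higher and 8 lower in WT (-0.37), and 3 and 11 of 26 in KO (-0.51). There the medians of all genes were 0.02 and 0.07. Gzmb, the protease granzyme B, was at 719 CPM in WT members against 415 in non-cycling cells, and at 1621 in KO members against 1517. Its WT log2 ratio against cells without Ccr7 or Lef1 was -0.04. Prf1, the pore-forming perforin, was at 259 against 129 in WT and at 559 against 385 in KO. Ccl5, a chemokine of memory and effector cells, was lower in cycling cells, at 4533 CPM against 8318 in WT and 2588 against 6149 in KO. Chemokine receptors and residency genes had 6 of 14 lower in both libraries, among them Cxcr3, Ccr7 and Cd69, against 6.56% of all genes. Of these 14, 2 reached 50 CPM in non-cycling cells alone, and of the other 12, 4 were lower. S1pr1, which guides egress from tissue, was at 34.7 and 2.29 CPM against 111 and 68.2.

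Tcf7, the deleted gene (chr11:52252371-52283014, minus strand, GRCm38), was compared first between KO and WT cycling cells. It was at 60.2 CPM in WT members, from 33 UMIs in 13 of 41 cells, and at 17.6 CPM in KO members, from 23 UMIs in 10 of 70 cells. The ratio was 0.29 (0.16 to 0.51). In non-cycling cells it was at 241 and 123 CPM, a ratio of 0.51 (0.39 to 0.66). Of the KO members' UMIs 30.4% came from 1 cell, and among high-load members the ratio was 0.21 (0.09 to 0.46). The KO library was thus lower in both cell sets, as its label says, and transcripts remained in both. The sources used here do not give the deleted exons, so the remaining UMIs cannot be assigned to cells without deletion or to transcripts of the deleted allele.

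Between KO and WT members 147 of 2818 genes were counted as higher in KO (5.22%) and 146 as lower (5.18%), with a median log2 ratio of 0.04. Between KO and WT non-cycling cells 192 of 2625 were higher (7.31%) and 131 lower (4.99%). With at least 2 gate UMIs, 130 and 138 genes passed in cycling cells, of which 91 and 97 were among the first calls. Among high-load members 123 and 162 passed, with 82 and 88 shared.

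Genes of naive, memory and stem-like cells were often lower in KO members. Of 14 measured, 8 were lower (Tcf7, Il7r, Slamf6, Klf2, Foxo1, Eomes, Actn1, Rasgrp2) and 1 was higher (Xcl1), against 5.18% of all genes, and the median log2 ratio was -0.99. Of the 8, Tcf7 (the deleted gene), Il7r, Slamf6, Klf2, Foxo1 and Rasgrp2 reached 50 CPM in WT members alone. For such genes the filter itself nearly fixes the direction. Slamf6, a surface receptor that marks stem-like cells, was at 56.6 CPM in WT and 10.7 in KO members, a ratio of 0.19 (0.09 to 0.37). Klf2, which drives expression of egress receptors, was at 131 and 19.1, a ratio of 0.15 (0.09 to 0.23), and 56.0% of its KO UMIs came from 1 cell. Il7r was at 80.3 and 34.4, a ratio of 0.43 (0.28 to 0.66), and Foxo1, a factor upstream of Klf2 and Il7r, at 54.7 and 21.4. Rasgrp2, an activator of the integrin regulator Rap1, was at 87.6 and 12.2, with 37.5% of the WT UMIs in 1 cell. Among members with at least 2 gate UMIs 7 of 12 genes were lower, against 138 of 2857 over all genes. Among high-load members 6 of 11 were lower, against 162 of 2841. These counts use the same filter, so its limit holds for them too. Slamf6 and Klf2 had ratios of 0.12 and 0.14 among high-load members, whereas Il7r with at least 2 gate UMIs had a ratio of 0.71 (0.31 to 1.74). In non-cycling cells 4 of 21 were lower, with a median of -0.22, and in the deeper non-cycling cells of both libraries 11 of 22, with a median of -1.11. These deeper cells were chosen with a different cutoff in each library and are not matched in depth.

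Id2 and Id3, opposed regulators of effector and memory fate, were at 460 and 23.7 CPM in WT members. In KO members they were at 594 and 17.6 CPM, ratios of 1.29 (1.12 to 1.49) and 0.74 (0.36 to 1.59). Neither passed the fold required.

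Of 13 measured chemokine receptor and residency genes 4 were lower in KO members (Cxcr3, Itgal, Itgb1, Itgb7), against 5.18% of all genes, and none higher, and the median was -0.41. Of the 4, Cxcr3 and Itgb7 reached 50 CPM in WT members alone. In non-cycling cells 4 of 16 were lower and 2 higher, with a median of -0.30. Cxcr3, the receptor for interferon-induced chemokines, was at 100 CPM in WT and 26.0 in KO members, a ratio of 0.26 (0.16 to 0.40), beside 173 and 76.3 in non-cycling cells. Itgb7, the integrin beta 7 chain, was at 146 and 42.8, and Itgb1, the beta 1 chain, at 330 and 167. Gpr183, an oxysterol receptor that positions lymphocytes, was at 56.6 and 15.3, with 41.9% of the WT UMIs in 1 cell and a ratio of 0.61 (0.22 to 1.84) among high-load members. Crip1, a small LIM protein, was at 1708 and 806 CPM in members and 1138 and 1021 in non-cycling cells. Its ratio was 0.47 (0.43 to 0.52) in members and 0.90 (0.81 to 0.99) in non-cycling cells, and the quotient of these was 0.53 (0.43 to 0.64).

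Several receptor and signalling genes were lower too. Ifngr1, of the interferon gamma receptor, was at 381 CPM in WT and 241 in KO members, and Cd6, an adhesion receptor, at 120 and 75.7. Of 21 measured T cell receptor signalling genes 3 were lower (Prkcq, Sh2d1a, Skap1) and none higher, against 5.18% and 5.22% of all genes. Nrn1, encoding neuritin, was at 186 and 78.0 CPM. 5830405F06Rik was at 945 and 242 CPM, but it lies among T cell receptor beta V segments, and its UMIs came from 21 of 41 and 15 of 70 cells. Hspa1a, a heat shock protein, was at 74.8 and 8.41 CPM, and all 41 of its WT UMIs came from 1 cell.

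Of 24 measured cytotoxic and effector genes 10 were higher in KO members (Gzma, Gzmb, Gzmc, Gzmf, Prf1, Ifng, Fasl, Ccl3, Ccl4, Xcl1) and 4 lower (Gzmk, Ccl5, Ctsw, Lamp1), against 5.22% and 5.18% of all genes, with a median of 0.49. Among the 10, Gzma, Gzmc and Gzmf reached 50 CPM in KO members alone. For such genes the filter itself nearly fixes the direction. In non-cycling cells 12 of 25 were higher and none lower, with a median of 0.50. Gzmb had a ratio of 2.25 (2.02 to 2.52) and UMIs in 26 of 41 WT and 62 of 70 KO members. Prf1 had a ratio of 2.16 (1.80 to 2.60) and Ifng, interferon gamma, of 1.86 (1.43 to 2.44), at 128 CPM in WT and 237 in KO members. Among high-load members the 3 ratios were 2.11, 1.93 and 1.80. The chemokines Ccl3 and Ccl4 were at 378 and 511 CPM in WT members and at 1105 and 1336 in KO members. Their ratios were 2.93 (2.53 to 3.40) and 2.61 (2.30 to 2.98). For Prf1 1 cell gave 32.4% of the WT and 24.8% of the KO UMIs, and for Ccl3 28.5% and 22.3%, so these intervals understate the error.

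Some members of the effector list rested on very few cells. Gzmc had no UMI in WT members and 625 CPM in KO members, at least 114-fold higher, but 67.4% of its 818 UMIs came from 1 of 15 cells; without each set's top cell the bound was 35.6-fold. Gzmf had 1 UMI in WT members and 130 in KO members, 82.3% of them in 1 cell. Xcl1, a ligand for type 1 dendritic cells, was at 85.8 and 275 CPM from 7 and 11 cells, with 36.2% and 41.7% from 1 cell. Gzma was at 32.8 and 81.8 CPM, yet at a ratio of 0.33 among members with at least 2 gate UMIs and 0.24 among high-load members. Its direction therefore depended on which members were taken. Over the list, 8 of 23 were higher and 3 lower with at least 2 gate UMIs, against 130 and 138 of 2857 over all genes. Among high-load members they were 9 and 2 of 23, against 123 and 162 of 2841.

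Gzmk and Ccl5 went the other way. Gzmk, a granzyme of less differentiated effector cells, was at 266 CPM in WT and 98.6 in KO members, a ratio of 0.37 (0.29 to 0.47). In non-cycling cells it was at 145 and 150 CPM, a ratio of 1.03 (0.78 to 1.37). The quotient of the ratios was 0.36 (0.21 to 0.60) against all non-cycling cells, 0.38 (0.21 to 0.69) against the deeper ones and 0.36 (0.20 to 0.64) against those without Ccr7 or Lef1. The lower Gzmk level of KO cells was thus seen in cycling and not in non-cycling cells, with each kind of comparison cell, and the ratio among high-load members was 0.37 (0.28 to 0.49). Ccl5 had a ratio of 0.57 (0.54 to 0.60), which was 0.73 (0.67 to 0.79) among high-load members and so no longer past the fold.

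By CPM, the list of exhaustion-associated genes and Cxcr6 differed less between KO and WT in cycling than in non-cycling cells. None of 13 measured exhaustion-associated genes was counted as higher or lower in KO members, with a median of -0.06. In KO non-cycling cells 8 of 14 were higher, against 7.31% of all genes, with a median of 0.66. Pdcd1 had a ratio of 1.02 (0.89 to 1.18) in members, Lag3, a receptor for MHC class II, of 0.86 (0.72 to 1.02), and Tox of 1.05 (0.84 to 1.31). In non-cycling cells these were 1.15 (0.95 to 1.39), 1.67 (1.28 to 2.18) and 2.05 (1.43 to 2.97). The quotient was 0.89 (0.64 to 1.24) for Pdcd1, 0.51 (0.33 to 0.80) for Lag3 and 0.51 (0.28 to 0.92) for Tox. That of Pdcd1 was thus not resolved. With only non-cycling cells free of Ccr7 and Lef1, the quotients of Lag3 and Tox were 0.78 (0.48 to 1.27) and 0.52 (0.26 to 1.01), so their difference between the cell sets was not resolved there.

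Cxcr6, the receptor for CXCL16, known for placing effector cells near dendritic cells in tumors, was at 464 CPM in WT members and 443 in KO members. The ratio was 0.95 (0.82 to 1.11). In non-cycling cells it was at 247 and 561 CPM, a ratio of 2.27 (1.89 to 2.73). The quotient was 0.42 (0.30 to 0.59), 0.37 (0.26 to 0.53) against the deeper cells and 0.50 (0.34 to 0.72) against cells without Ccr7 or Lef1. Among high-load members the KO to WT ratio was 1.04. By CPM, Cxcr6 was therefore 1.87-fold higher in cycling than in non-cycling WT cells and 0.79-fold in KO cells, and the KO excess was seen in non-cycling cells. The shares of cells given below do not repeat the lower level in cycling KO cells. Cd28, the co-stimulatory receptor, was at 113 and 115 CPM in members and 136 and 124 in non-cycling cells.

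**Figure D4:**
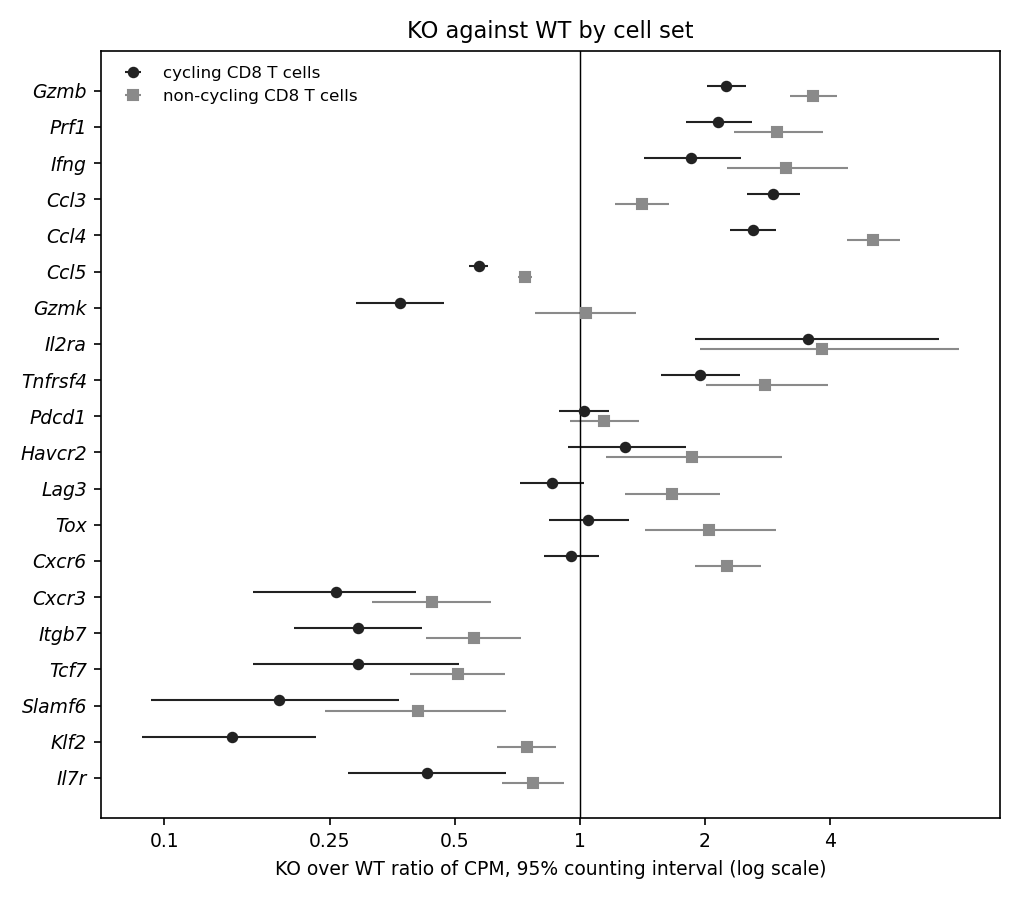
Ratio of KO to WT CPM (log axis) with its exact 95% counting interval for 20 genes, black circles for cycling and grey squares for non-cycling CD8 T cells. Stem-like and homing genes lie below 1 in cycling cells and most effector genes above it, while Cxcr6 (0.95 and 2.27) and Gzmk (0.37 and 1.03) stand apart between the cell sets.

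Shares of cells gave a view that a few rich cells do not set. Each cell was thinned to 2000 UMIs, which kept 40 WT and 70 KO cycling and 124 WT and 114 KO non-cycling cells. Gzmb had a UMI in 47.5% of WT and 77.1% of KO cycling cells and in 22.6% and 43.0% of non-cycling cells. Cxcr6 had one in 62.5% and 64.3% of cycling cells, and in 30.6% and 59.6% of non-cycling cells. Gzmk had one in 35.0% and 18.6% of cycling cells, and in 20.2% of non-cycling cells of each library. Between KO and WT cycling cells the shares of Gzmb and Gzmk lay in the direction of the CPM. Between cycling and non-cycling cells of different libraries the shares of Gzmb and Cxcr6 were ordered differently from the CPM, so no order is read there. Within the KO library Cxcr6 was ordered differently too. Its share was higher in cycling cells (64.3% against 59.6%) and its CPM lower, so no order is read there either. Mature dendritic cells, thinned alike, had none of these genes' UMIs in 50 WT and 38 KO cells, which by 3 counts of the total allows a share of up to 6% in WT and 7.89% in KO, and by the exact interval up to 7.11% and 9.25%. These cells were chosen to hold no Cd3 UMIs, so their shares may understate the background from stray T cell transcripts.

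Tcf7 was seen in 17.5% of WT and 7.14% of KO cycling cells after thinning, and in 38.7% and 28.1% of non-cycling cells. In mature dendritic cells it was seen in 10.0% and 5.26%, so the KO cycling share was near theirs. Whether those UMIs are stray T cell transcripts or the dendritic cells' own was not tested. Cxcr3 was seen in 20% and 7.14% of cycling cells, with 0 of 50 and 1 of 38 mature dendritic cells. Pdcd1 was seen in 42.5% and 58.6% of cycling cells, above 22% and 10.5% of mature dendritic cells, where its source was not tested either. Its share was higher in KO cycling cells, while its CPM differed little between KO and WT members. No order of KO and WT is therefore read for it. Il7r was seen in 22.5% and 11.4% of cycling cells, below the 32% and 39.5% of mature dendritic cells, which are known to express it. For Il7r these cells are therefore no measure of background.

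**Figure D5:**
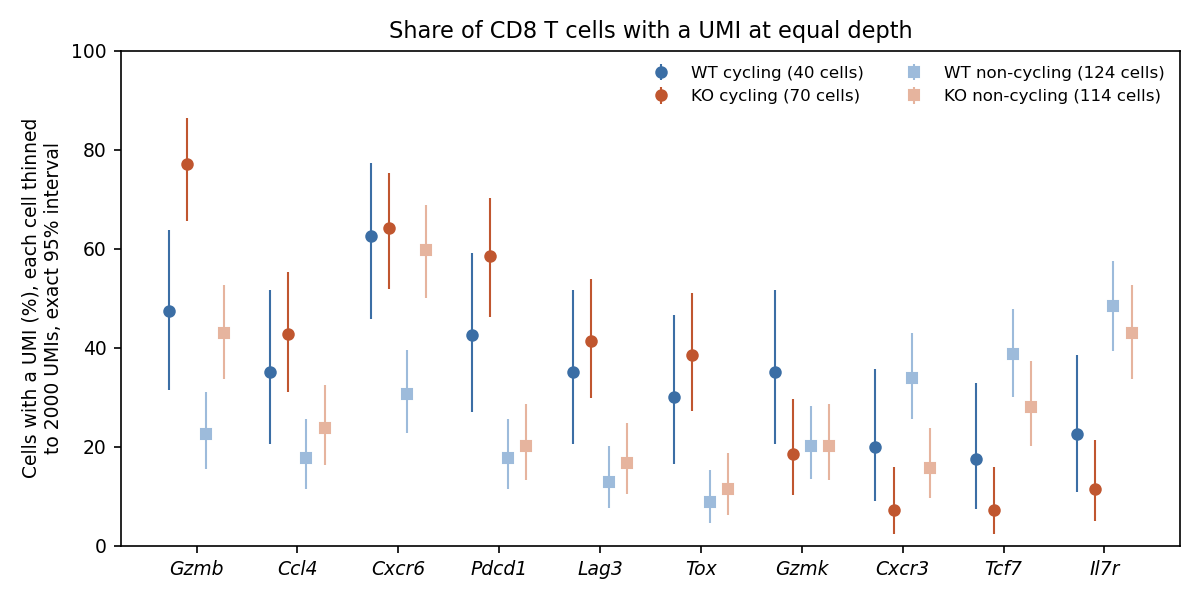
Share of cells (percent) with at least 1 UMI of each of 10 genes after thinning every cell to 2000 UMIs, for WT and KO cycling (40 and 70) and non-cycling (124 and 114) CD8 T cells, with exact 95% intervals. Gzmb is highest in KO cycling cells at 77.1%, and the Cxcr6 shares are alike in WT and KO cycling cells, at 62.5% and 64.3%.

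Among growth lists, small numbers of genes were higher in KO members. Ribosome biogenesis and translation factors had 7 of 31 higher (Fbl, Dkc1, Nhp2, Nop16, Mrto4, Gnl3, Nip7), nucleotide and one-carbon synthesis 5 of 23 (Psat1, Psph, Shmt2, Mthfd2, Gart), and amino acid uptake and mTORC1 genes 4 of 13 (Slc7a5, Eif4ebp1, Atf4, Srm), against 5.22% of all genes. None was lower. The medians were 0.38, 0.18 and 0.43. In non-cycling cells 8 of 28, 4 of 16 and 1 of 10 genes were higher, with medians of 0.42, 0.51 and 0.01. Mthfd2, a mitochondrial folate enzyme, was at 85.8 CPM in WT and 134 in KO members, a ratio of 1.56 (1.12 to 2.20), which was 1.48 among members with at least 2 gate UMIs and so not past the fold. Slc7a5, the transporter of large neutral amino acids, was at 21.9 and 63.4, a ratio of 2.90 (1.57 to 5.83). It reached 50 CPM in KO members alone, where the filter itself nearly fixes the direction. The endoplasmic reticulum chaperones Hspa5, Pdia6 and Calr were higher, Hspa5 at 235 and 427 CPM and Calr at 172 and 323. Glycolysis had 0 of 14 genes counted and cytosolic ribosomal proteins 0 of 80. KO members were deeper cells, with a median of 18580.5 UMIs against 10927, and the part of depth in these results was not tested. Among high-load members ribosome biogenesis had 5 of 32 genes higher, and nucleotide synthesis 2 of 25 higher and 1 lower, with a median of 0.02. Over all genes 123 were higher and 162 lower of 2841.

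Il2ra, the high-affinity chain of the interleukin 2 receptor, was at 20.1 CPM from 3 WT cells and 71.1 CPM from 31 KO cells. The ratio was 3.54 (1.89 to 7.34), and 3.82 (1.95 to 8.19) in non-cycling cells. Tnfrsf4, the co-stimulatory receptor OX40, was at 184 and 359 CPM, a ratio of 1.95 (1.57 to 2.44). Both genes are also regulatory T cell markers, and Foxp3 had UMIs in 1 WT and 4 KO members; their part in these ratios was not tested. Irf8, a transcription factor induced on activation, was at 104 and 266 CPM, and its log2 ratio was 0.18 when the gate was applied after thinning. Mt1, a metallothionein, was at 83.9 and 203 CPM in members and 8.78 and 157 in non-cycling cells. Igfbp7, a secreted growth factor binding protein, was at 16.4 and 73.4 CPM, with 55.6% of the WT UMIs in 1 cell, and H1f0, a linker histone, at 12.8 and 61.9.

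Over all members, the medians of the cycle lists differed little between KO and WT. Of 57 measured replication genes 1 was higher (Rfc5) and 5 lower (Mcm4, Cdt1, Rpa1, E2f1, Topbp1) in KO, against 5.22% and 5.18% of all genes, with a median of -0.04. Of 42 mitosis genes 4 were higher (Ccnb2, Cdc20, Tpx2, Cks2) and 1 lower (Incenp), with a median of 0.15. No measured histone (9) and no chromatin or tubulin gene (30) was counted. Ccnb2, cyclin B2, was at 89.4 CPM in WT and 151 in KO members, a ratio of 1.68 (1.23 to 2.35), and Ccnb1 was at 36.5 and 54.3. Cdk1 had a ratio of 1.40 and that of Birc5 had an interval from 1.03 to 1.64, and neither passed the fold required. Mcm4, of the replicative helicase, was at 161 and 96.3 CPM, a ratio of 0.60 (0.45 to 0.80), while that of Mcm5 was 0.86 (0.67 to 1.11). Rrm2 had a ratio of 0.77 (0.63 to 0.94), above the fold counted as lower.

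Taking only members with clear cycle signatures gave other counts. Among high-load members, none of 65 measured replication genes was higher and 10 were lower in KO, with a median of -0.25. Over all genes of that set, 123 were higher and 162 lower of 2841, with a median of 0.01. Replication genes were thus lower more often there than all genes. Of 51 mitosis genes 1 was higher and 5 were lower, with a median of -0.06. With at least 2 gate UMIs the counts were 1 and 6 of 62 for replication, and 1 and 1 of 49 for mitosis. Their medians were -0.16 and 0.13, and over all genes 130 were higher and 138 lower of 2857. The replication median was thus below 0 in each set, while the mitosis median turned among high-load members alone. A larger share of KO members had a high load (68.6% against 51.2%), so the mitosis counts over all members and those over high-load members describe different mixtures.

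Of the inhibitors, Cdkn1a (p21), which blocks cyclin-dependent kinases, was higher in KO members. It was at 14.6 CPM in WT members, from 8 UMIs in 6 cells, and at 89.4 CPM in KO members, from 117 UMIs in 21 cells. The ratio was 6.13 (3.01 to 14.5). In non-cycling cells it was at 30.7 and 16.1 CPM, a ratio of 0.52 (0.23 to 1.11). The quotient was 11.7 (2.71 to 62.0), the highest KO cell held 22.2% of the UMIs, and the WT value rests on 8 UMIs. Among high-load members the ratio was 3.62 (1.75 to 8.67). Cdkn2a, which encodes p16 and p19ARF, was at 31.0 and 63.4 CPM, and its log2 ratio was -0.01 when the gate was applied after thinning.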

How the data were processed

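Single-cell RNA-seq was made from sorted immune cells of B16Ova tumors, in 1 library for each of 2 genotypes. The deposited values are whole-number counts of UMIs per gene and barcode, in filtered 10x matrices. The submitters' processing notes name Cell Ranger 1.3 and mm10, while the deposited count matrices carry software version 3.0.2 per the file headers. The annotation release, the end of the transcript sequenced and the exons removed by Cre are not given in the sources used here. Of 27998 gene IDs, 27722 (99.0%) were matched to GENCODE M21 on GRCm38 for coordinates, and 56 symbols that occur more than once stay separate rows.

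Barcodes with at least 500 UMIs, 300 genes and at most 10% mitochondrial UMIs were kept, 988 of 1120 in WT and 1086 of 1219 in KO. Counts were summed per library and cell set, with exact Poisson intervals for levels, conditional binomial intervals for ratios and Clopper-Pearson intervals for shares, all at 95%. Differences of the gate share have Newcombe intervals. A quotient of ratios has the widest interval that the bounds of both ratios allow. Where a gene had no UMI in a set, a floor of 3 UMIs was used in its ratio and list median. Scrublet, in scanpy 1.11.5 with an expected rate of 6%, called 5 WT and 3 KO barcodes (0.506% and 0.276%), none of them cycling CD8 T cells. Such low rates leave doubt that it worked, so no doublet was removed in the values given. Other tools were Python 3.11.15, numpy 2.4.6, scipy 1.17.1, pandas 2.3.3 and matplotlib 3.10.9, and edgeR 4.0.16 for TMM factors only. Scripts were tested on simulated data.

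The members and the gene lists were chosen with earlier results of these data known. Named genes were 25 fixed genes, the 12 highest and 12 lowest in KO against WT members by the interval bound nearest to 1, the 10 highest and 10 lowest in cycling against non-cycling cells, and up to 4 per list. Genes outside this rule were named where a count of a list was spelled out, and were chosen after their values were seen. The alternatives tried changed the scaling, the filter on low values, the gate, the comparison cells, the cells kept and the thinning depth. High-load members, non-cycling cells without Ccr7 or Lef1, and the KO to WT contrast in the narrower sets of non-cycling cells were added after the data were seen. Some named genes, a promoter and a further set of comparison cells are not reported here.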

Additional observations from a re-analysis of the deposited data

How the results depend on the processing

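No paired analysis was possible because each group has 1 library. Counting rules moved the number of genes most. At a minimum of 200 CPM, 21 and 22 genes were higher and lower between KO and WT cycling cells, and 116 and 35 between cycling and non-cycling cells in both libraries. With no minimum these were 281 and 324, and 657 and 289. With at least 2 gate UMIs the gate share was 13.6% in WT and 24.3% in KO. It was 12.2% and 22.3% after thinning to 2000 UMIs, and 8.14% and 11.1% at 1000. The mitosis share of KO cycle UMIs was 48.0% with at least 2 gate UMIs and 45.0% as a mean of each cell's share. Without the 3 deepest WT members the WT share was 44.6%, and with the gate applied after thinning the shares were 46.2% and 49.5%. That gate left 252 genes higher and 89 lower in cycling cells. Deeper comparison cells left 101 lower, and cells without Ccr7 or Lef1 left 215 higher. Of 847 list medians under alternatives 801 moved by less than their spread and 7 turned direction, and of 6330 gene values 5400 and 25. Causes were not tested.

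Directions turned as follows (log2 ratios, cycling against non-cycling unless KO against WT is named). As means of each cell's CPM, the chemokine receptor list was at 0.01 and Cd6 at 0.23 in WT. With at least 2 gate UMIs Gzma was at -1.61 for KO against WT. With the gate after thinning, in WT, the entry and inhibitor list was at 0.11, Bhlhe40 at -0.00, Ikzf2 at -0.05, Prf1 at -0.16 and Tnfrsf4 at -0.75. In KO, the exhaustion list was at -0.09, the CD4 and Treg list at -0.29, Bhlhe40 at -0.23, Ccl3 at -1.21, Cdkn2a at -0.26, Havcr2 at -0.35, Igfbp7 at -0.35, Rgs16 at -0.09 and Tnfrsf4 at -0.35. For KO against WT the CD4 and Treg list was at -0.15, and at -0.07 without the deepest members, and Cdkn2a at -0.01. Against the deeper non-cycling cells the KO exhaustion list was at -0.03 and Ccr7 at 0.15. Against cells without Ccr7 or Lef1, the WT values were -0.18 for Ccl4 and -0.04 for Gzmb. The KO values were -0.02 for Ccl3, -0.04 for Cdkn2a, 0.87 for Fam101b and -0.01 for Havcr2. Ccr7, at 3.00 in WT and in KO, turned by construction. Among high-load members Gzma was at -2.07 and Hspa1a at 0.39 for KO against WT. Depth limits genes under 50 CPM, which stand on few UMIs.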
